A study of Mus musculus with 20 samples.

Results

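Cytochrome P450 enzymes of families 1 to 3, which oxidize most drugs and many steroids and fatty acids, were followed as a group of 48 genes in mouse livers after siRNA knockdown of Eif3m, which encodes a subunit of the initiation factor eIF3. The members were all symbols of the deposited table that consist of Cyp1, Cyp2 or Cyp3, 1 letter and a number and that averaged at least 1 CPM in the RNA of the day 9 control livers. CPM are counts per 1000000 counts of the library total after TMM scaling, which corrects totals for a few very abundant genes. Of 38784 symbols in the table, 58 matched the name pattern and 48 reached that level. Cyp2c55 lay just inside at 1.06 CPM, and Cyp2j13 just outside at 0.631 CPM. The 10 symbols below the threshold were Cyp1b1, Cyp2c65, Cyp2c66, Cyp2j8, Cyp2j11, Cyp2j12, Cyp2j13, Cyp2s1, Cyp2t4 and Cyp2w1. By subfamily the members were 2 Cyp1a, 4 Cyp2a, 5 Cyp2b, 13 Cyp2c, 9 Cyp2d, 3 Cyp2j and 7 Cyp3a genes, and Cyp2e1, Cyp2f2, Cyp2g1, Cyp2r1 and Cyp2u1.

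The animals were 10 FVB/N mice of 6 to 8 weeks, and the labels give no sex. They received lipid nanoparticles carrying either siRNA against Eif3m or a scrambled luciferase siRNA, called control here, by tail vein at 0.5 mg/kg with 1 injection in 5 days. Livers were collected from 3 Eif3m siRNA and 3 control siRNA mice at day 9, and from 2 Eif3m siRNA and 2 control siRNA mice at day 13. Each liver gave 1 RNA-seq library and 1 ribosome profiling library, in which the sequenced fragments are the footprints of mRNA that ribosomes protect, making 20 libraries in all. RNA was captured with the KAPA mRNA kit at day 9 and prepared with NeoPrep at day 13, so day and RNA kit cannot be told apart, while ART-seq was used for all footprints. All mice, the controls included, received nanoparticles, so no group was untreated, and the labels do not say which liver cells took up the siRNA. The 6 day 9 RNA libraries are also part of an earlier deposit by the submitters.

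P450 enzymes sit in the membrane of the endoplasmic reticulum, hold a heme group and take electrons from NADPH through the reductase Por. In hepatocytes the Cyp1a genes are classical targets of the aryl hydrocarbon receptor Ahr, Cyp2b10 of the constitutive androstane receptor Nr1i3, and Cyp3a11 of the pregnane X receptor Nr1i2. Many members are expressed mainly by hepatocytes near the central vein, and Cyp2f2 by those near the portal tract. In the mouse the Cyp2c, Cyp2d, Cyp2a, Cyp2b and Cyp3a genes form clusters of near-identical neighbours, and several Cyp2a, Cyp2b and Cyp3a members are known for different levels in males and females.

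Library totals were 27.4 to 39 M counts in day 9 RNA, 4.96 to 26.4 M in day 13 RNA, 4.5 to 7.69 M in day 9 footprints and 1.64 to 6.52 M in day 13 footprints. Eif3m itself averaged 7.74 ± 0.506 CPM in Eif3m siRNA livers and 74.6 ± 1.09 CPM in control livers in day 9 RNA (SD, n = 3 each). Its log2 changes were -3.27 and -4.01 in RNA and -3.61 and -4.58 in footprints at days 9 and 13. All 9 hepatocyte markers were detected in all libraries, and together they made up 160400 to 237300 CPM in Eif3m siRNA livers and 190800 to 337400 CPM in control livers. The deposited counts contain fractions: each member had non-whole counts in 30% to 95% of libraries, lowest in Cyp2r1 and highest in Cyp1a1, Cyp2c37, Cyp2c44, Cyp2c54 and Cyp2d34 alike. Counts of near-identical members may therefore share reads, and the separation of such genes is uncertain. In whole liver, fewer cells of a type and less RNA per cell cannot be told apart in any of the values below.

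The summed level of the P450 genes was lower in Eif3m siRNA livers in both assays and on both days. Their summed RNA averaged 27070 ± 2450 CPM in Eif3m siRNA livers and 33610 ± 1610 CPM in control livers at day 9 (SD, n = 3 each), a ratio of 0.805. At day 13 the sums were 53270 ± 9850 CPM in Eif3m siRNA livers and 66610 ± 2130 CPM in control livers (SD, n = 2 each), a ratio of 0.8. Footprint sums showed lower ratios. They were 15490 ± 1500 CPM in Eif3m siRNA livers and 20730 ± 644 CPM in control livers at day 9, a ratio of 0.747. At day 13 they were 13270 ± 716 CPM in Eif3m siRNA livers and 18910 ± 1310 CPM in control livers, a ratio of 0.702. In all 4 comparisons the groups' sums did not overlap. Before any correction for length, Cyp2e1 contributed most to these sums except in day 13 RNA, where Cyp3a11 did, and no test was run on them.

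**Figure D1:**
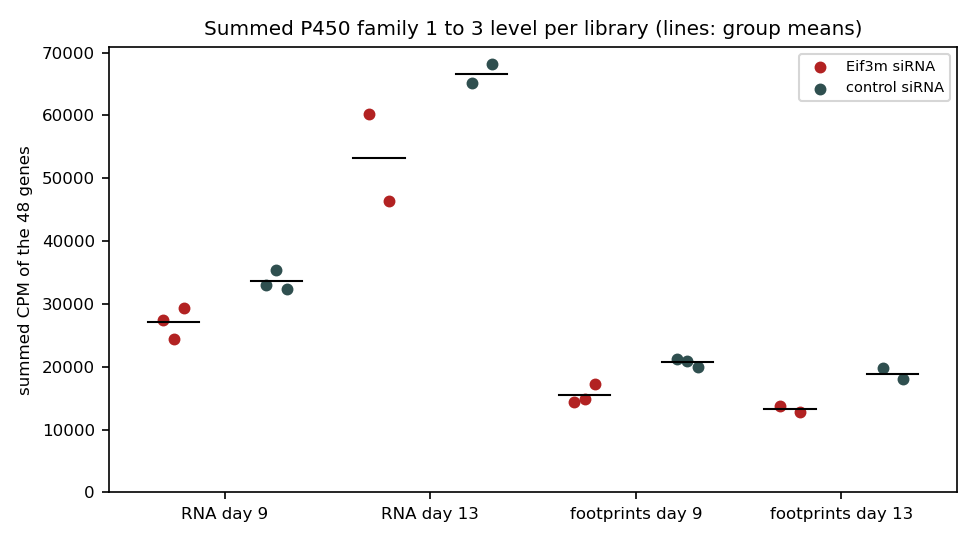
Summed level of the 48 P450 genes in each library, in CPM, by assay and day, with Eif3m siRNA livers left of control siRNA livers. Points are libraries and lines are group means. All Eif3m siRNA livers lie below all control livers in each of the 4 comparisons, with ratios of the means from 0.702 to 0.805.

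Gene by gene, falls outnumbered rises on both days and in both assays. A gene was called where edgeR's quasi-likelihood F test gave a Benjamini-Hochberg adjusted p below 0.05 over all genes tested, and log2 changes are Eif3m siRNA over control throughout. In day 9 RNA, 1 member rose and 8 fell, or 18.8% of the 48, where 5.67% of all 16444 genes tested were called (2.48% higher and 3.19% lower). Because the members had to reach 1 CPM in the control libraries of that comparison, the same was counted over the genes meeting that level, of which 6.94% were called. In day 13 RNA, 4 members rose and 11 fell (31.2%), where 16% of all genes were called, 6.09% higher and 9.87% lower, and 19.3% of those at 1 CPM or more. In day 9 footprints 4 rose and 18 fell (45.8%), where 14.7% of 12213 genes were called, 6.84% higher and 7.9% lower, and again 14.7% of those at 1 CPM or more. In day 13 footprints 1 rose and 12 fell (27.1%), where 12.4% of genes were called, 6.12% higher and 6.26% lower, and 12.9% of those at 1 CPM or more. The share called was thus larger among the members than among all genes in each of the 4 comparisons, by a factor that was smallest in day 13 RNA. With libraries scaled by their totals alone this excess was gone in day 9 footprints, where 22.9% of members and 22.5% of all genes were called. The shares of members and of all genes were then 22.9% and 7.57% in day 9 RNA, 31.2% and 15.3% in day 13 RNA, and 27.1% and 19.3% in day 13 footprints.

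The median log2 change of the 48 genes was -0.27 in day 9 RNA, -0.23 in day 13 RNA, -0.36 in day 9 footprints and -0.26 in day 13 footprints. The medians of all genes were -0.00, -0.16, 0.02 and 0.02 in the same order. Between 35 and 38 of the 48 members had negative changes in each comparison. In day 9 RNA, all Eif3m siRNA libraries lay below all control libraries for 27 members and above them for 4, against 20.3% and 18.9% of all genes. In day 13 RNA this held for 20 and 7 members (29.1% and 18% of all genes), in day 9 footprints for 20 and 5 (16.3% and 15.7%), and in day 13 footprints for 24 and 6 (27.1% and 28.1%). Scaling by library totals alone shifted the median of all genes to 0.12, 0.00, 0.25 and 0.34 in these comparisons. The members' medians then became -0.13 and -0.02 in RNA and -0.13 and 0.06 in footprints at days 9 and 13. Relative to all genes the members' median was -0.26 in day 9 RNA, -0.38 in day 9 footprints and -0.28 in day 13 footprints under each scaling, and between -0.06 and -0.02 in day 13 RNA. With library totals the called members split into 4 higher and 7 lower in day 9 RNA, 5 and 6 in day 9 footprints, and 6 and 7 in day 13 footprints. No member called under TMM turned its direction under that scaling, but some calls were lost. In day 9 footprints these were Cyp1a2, Cyp2b9, Cyp2b13, Cyp2b19, Cyp2b23, Cyp2c54, Cyp2c70, Cyp2e1, Cyp2f2, Cyp2g1, Cyp2j6 and Cyp3a13. In day 13 footprints Cyp2a4, Cyp2a5, Cyp2b10, Cyp2b19 and Cyp2f2 were lost, in day 9 RNA Cyp2j9 and in day 13 RNA Cyp1a2. DESeq2 did not call Cyp2b19, Cyp2c69, Cyp2g1, Cyp2j6 and Cyp3a13 in day 9 footprints, Cyp2b19 in day 13 footprints or Cyp1a2 in day 13 RNA. With day 9 fitted alone Cyp2b19, Cyp2c69, Cyp2c70 and Cyp3a13 lost their footprint calls. With day 13 fitted alone Cyp1a2, Cyp2b10, Cyp2c29, Cyp2c70, Cyp3a25 and Cyp3a57 lost their RNA calls.

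**Figure D2:**
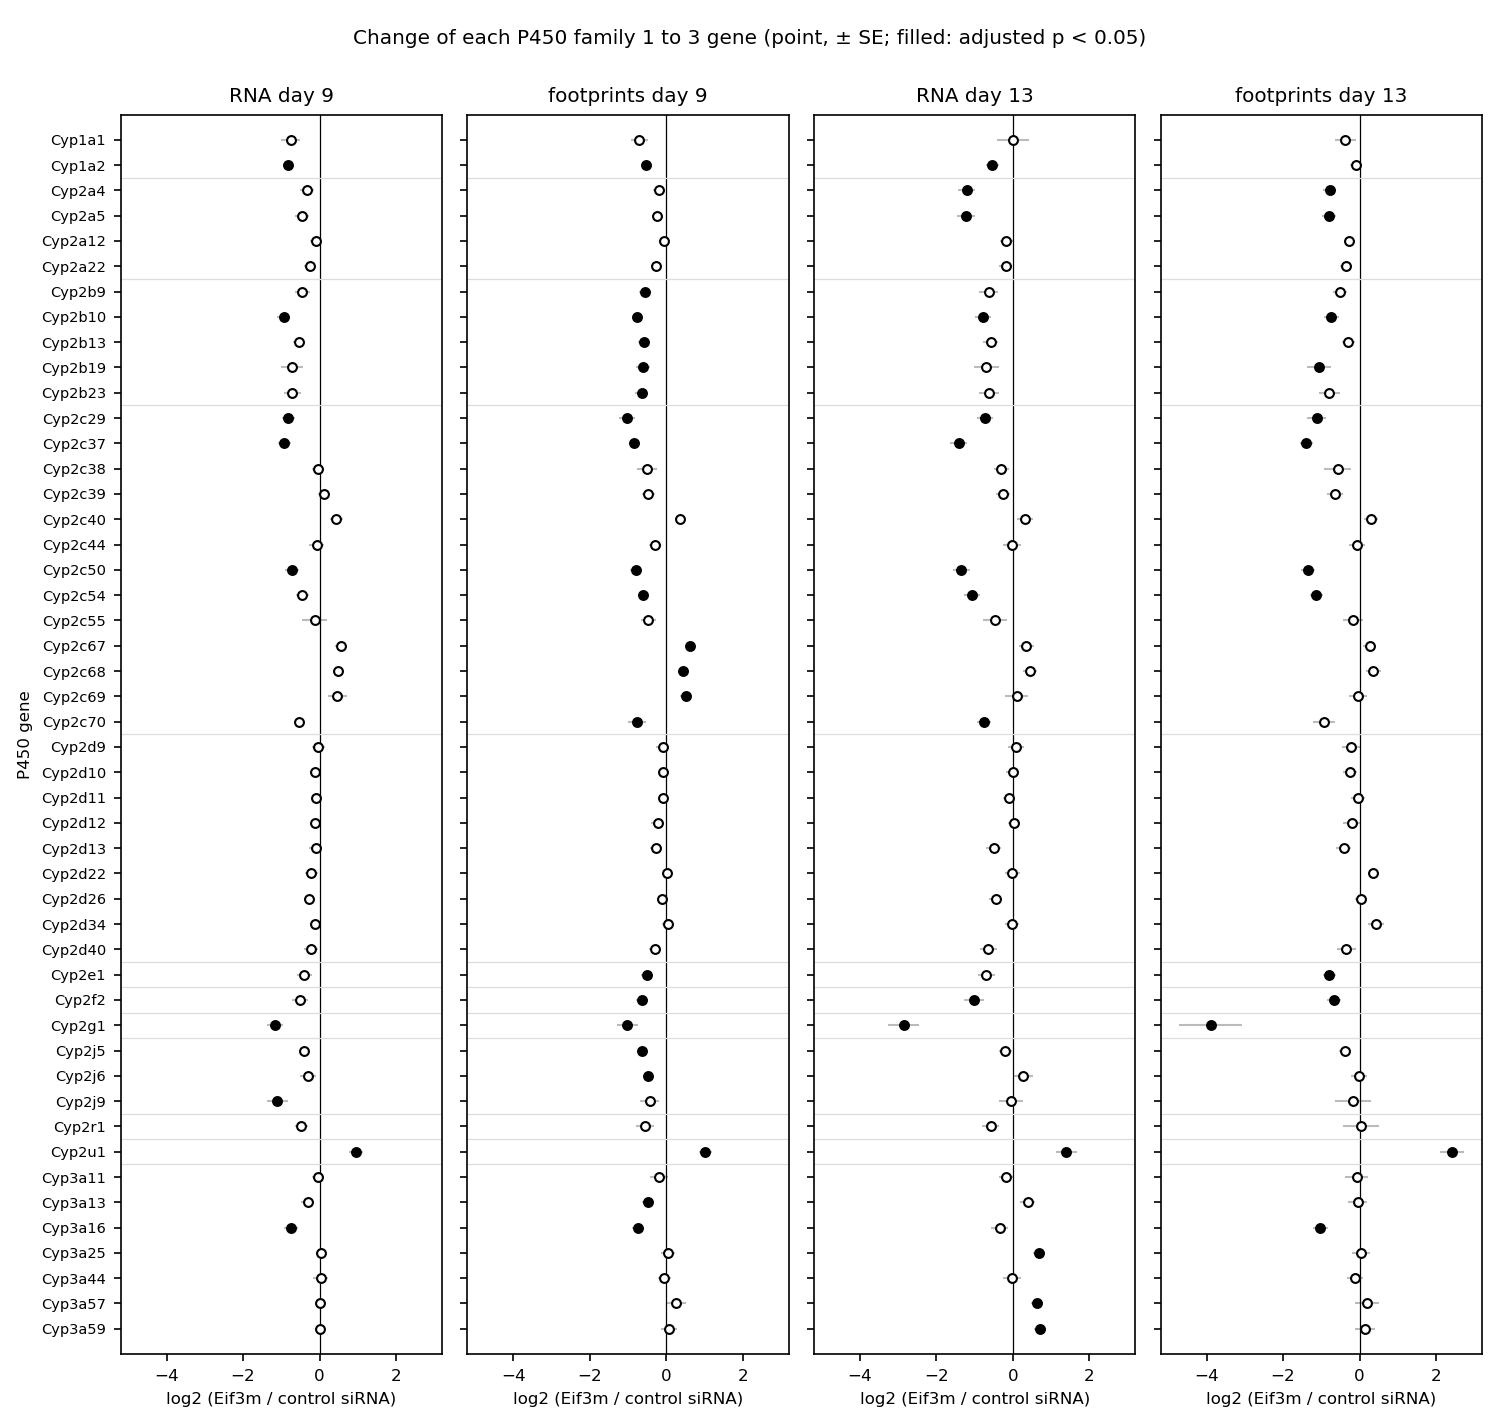
Log2 change, Eif3m siRNA over control siRNA, of each of the 48 P450 genes with its SE, in RNA and footprints at days 9 and 13; filled points passed an adjusted p of 0.05. Points left of 0 are lower in Eif3m siRNA livers, and between 35 and 38 of the 48 lie there in each panel.

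Some of these counts depend on single livers. In day 9 RNA, 9 calls became 5 without Eif3m siRNA library 1 or without library 2, and 18 without day 13 control library 1 or 2, which share the estimate of spread. In day 13 RNA, 15 calls became 9 without Eif3m siRNA library 2, the shallowest RNA library. In day 13 footprints, 13 calls became 7 without Eif3m siRNA library 2 and 8 without control library 2. Of the members, 6 were called in all 4 comparisons: Cyp2b10, Cyp2c29, Cyp2c37, Cyp2c50 and Cyp2g1, which fell, and Cyp2u1, which rose. A further 4 were called in 3 comparisons, 5 in 2, 13 in 1 and 20 in none. No member was called in both directions.

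Calls within the Cyp2c subfamily went in both directions. On chromosome 19 its 13 members lie in the order Cyp2c55, Cyp2c29, Cyp2c39, Cyp2c38, Cyp2c67, Cyp2c68, Cyp2c40, Cyp2c69, Cyp2c37, Cyp2c54, Cyp2c50, Cyp2c70 and Cyp2c44 (order from RefSeq). The neighbours Cyp2c37, Cyp2c54 and Cyp2c50 fell in 3 or all 4 comparisons. Of the 4 genes just before them, Cyp2c67, Cyp2c68 and Cyp2c69 rose in day 9 footprints alone and Cyp2c40 was called in no comparison. These neighbouring sets, called blocks here (the 4 genes first), were chosen after their values were seen and were not tested as sets. Sequences around the starts of 6 of these genes, from RefSeq on build GRCm38.p6, are shown because their calls went in opposite directions or, in Cyp2c40, did not pass. Each runs from 250 bases before to 50 after the annotated start, and capitals mark CAAAGTCCA, a form of the element bound by the hepatocyte factor Hnf4a.

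The first block is at chr19:39648993-39649292 (minus strand), chr19:39741052-39741351 (minus strand), chr19:39812765-39813064 (minus strand) and chr19:39886720-39887019 (minus strand).
Cyp2c67: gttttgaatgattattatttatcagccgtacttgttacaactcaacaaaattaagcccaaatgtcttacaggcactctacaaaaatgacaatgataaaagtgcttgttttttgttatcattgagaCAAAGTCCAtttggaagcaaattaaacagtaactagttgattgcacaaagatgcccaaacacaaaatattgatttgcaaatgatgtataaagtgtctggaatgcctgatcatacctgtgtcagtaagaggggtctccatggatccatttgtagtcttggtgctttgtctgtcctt
Cyp2c68: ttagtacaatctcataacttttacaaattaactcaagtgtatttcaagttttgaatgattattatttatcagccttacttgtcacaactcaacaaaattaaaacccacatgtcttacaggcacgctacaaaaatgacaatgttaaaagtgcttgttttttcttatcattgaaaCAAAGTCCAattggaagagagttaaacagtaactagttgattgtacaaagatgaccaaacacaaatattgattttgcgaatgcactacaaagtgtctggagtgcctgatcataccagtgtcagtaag
Cyp2c40: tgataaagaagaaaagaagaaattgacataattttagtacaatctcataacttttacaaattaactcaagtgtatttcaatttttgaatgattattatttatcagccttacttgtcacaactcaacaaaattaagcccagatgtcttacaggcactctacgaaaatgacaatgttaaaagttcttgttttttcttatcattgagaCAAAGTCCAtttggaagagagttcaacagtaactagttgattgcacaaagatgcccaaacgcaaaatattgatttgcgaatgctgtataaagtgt
Cyp2c69: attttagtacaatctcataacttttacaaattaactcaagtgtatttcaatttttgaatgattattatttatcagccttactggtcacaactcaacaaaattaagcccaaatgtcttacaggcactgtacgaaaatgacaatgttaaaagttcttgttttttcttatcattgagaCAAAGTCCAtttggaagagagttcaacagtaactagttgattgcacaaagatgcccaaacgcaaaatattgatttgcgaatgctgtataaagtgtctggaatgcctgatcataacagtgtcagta
The windows of Cyp2c37 and Cyp2c50 are at chr19:39992174-39992473 (plus strand) and chr19:40089429-40089728 (plus strand).
Cyp2c37: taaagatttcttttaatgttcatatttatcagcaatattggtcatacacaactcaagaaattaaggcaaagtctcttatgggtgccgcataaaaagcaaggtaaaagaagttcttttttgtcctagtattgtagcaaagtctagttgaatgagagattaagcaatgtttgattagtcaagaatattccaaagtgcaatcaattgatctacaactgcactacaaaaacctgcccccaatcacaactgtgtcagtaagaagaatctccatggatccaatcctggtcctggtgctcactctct
Cyp2c50: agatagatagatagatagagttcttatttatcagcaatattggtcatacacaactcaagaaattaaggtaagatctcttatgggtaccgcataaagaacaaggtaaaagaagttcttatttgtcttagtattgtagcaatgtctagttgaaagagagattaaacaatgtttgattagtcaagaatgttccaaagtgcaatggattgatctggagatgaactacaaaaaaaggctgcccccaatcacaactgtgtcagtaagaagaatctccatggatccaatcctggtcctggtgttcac

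CAAAGTCCA was searched on both strands and occurs in all 4 windows of the first block, beginning 125 bases before the start in Cyp2c67, 77 in Cyp2c68, 45 in Cyp2c40 and 75 in Cyp2c69, and in neither window of the second. It was found in 7 of the 42 windows available for 40 members, the others being those of Cyp2c70, Cyp3a11 and Cyp3a16, and in 0.475% of all 32851 promoter windows of 300 bases. The variant CAAAGTTCA was in 0 of the 42 and in 0.39% of all windows. TATAAA was in 24 of the 42 (13.6% of all), and the half-site AGGTCA in 18 (16.3% of all). Cyp2c70 and Cyp3a16 also hold CAAAGTCCA, and both were lower in Eif3m siRNA livers in some comparisons below. Within the first block 91% of bases were identical between Cyp2c68 and Cyp2c69, 79% between Cyp2c40 and Cyp2c69 and 73.3% between Cyp2c40 and Cyp2c68, and matches shared by these windows are not independent. Windows were compared end to end, so a shift between annotated starts lowers these percentages. The window of Cyp2c67, where CAAAGTCCA begins 125 bases before the start, gave 48.7% with Cyp2c40, 60.7% with Cyp2c68 and 61.3% with Cyp2c69. The letters around the element are nearly the same in Cyp2c67 as in the rest of the block, so its match is not independent either. In the second block 86.3% were identical between Cyp2c37 and Cyp2c50. A match is a description of these letters and shows no binding.

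Cyp2c37, an arachidonic acid hydroxylase, was lower in every comparison. Cyp2c37 RNA at day 9 was 461, 294 and 434 CPM in Eif3m siRNA livers, against 715, 753 and 783 CPM in control livers. At day 13 its RNA was 592 and 441 CPM in Eif3m siRNA livers, against 1252 and 1510 CPM in control livers. Both days were lower with Eif3m siRNA, and the same held for footprints. These were 290.1, 290.0 and 372 CPM in Eif3m siRNA livers, against 652, 500.4 and 544 CPM in control livers at day 9. They were 167 and 133 CPM in Eif3m siRNA livers, against 392 and 387 CPM in control livers at day 13. No Eif3m siRNA library reached the lowest control library in any of the 4 comparisons. The fitted log2 changes in RNA were -0.92 (SE 0.18, adjusted p = 0.012) at day 9 and -1.42 (SE 0.22, adjusted p = 0.0015) at day 13. Those in footprints were -0.83 (SE 0.14, adjusted p = 0.0004) and -1.39 (SE 0.18, adjusted p = 3.6e-05) (edgeR quasi-likelihood test throughout). It stayed called in all 4 comparisons whichever of the 10 livers' libraries was left out.

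Cyp2c50, a relative that makes epoxides of arachidonic acid, followed the same order of groups. Its RNA was 616, 387 and 536 CPM in Eif3m siRNA livers, against 856, 881 and 797 CPM in control livers at day 9 (log2 -0.72, SE 0.18, adjusted p = 0.035). At day 13, Cyp2c50 RNA was 746 and 544 CPM in Eif3m siRNA livers, against 1506 and 1777 CPM in control livers (log2 -1.35, SE 0.22, adjusted p = 0.002). In footprints its levels were 285, 297 and 389 CPM in Eif3m siRNA livers, against 666, 509 and 514 CPM in control livers at day 9 (log2 -0.80, SE 0.15, adjusted p = 0.001). At day 13, Cyp2c50 footprints were 187 and 143 CPM in Eif3m siRNA livers, against 431 and 398 CPM in control livers (log2 -1.34, SE 0.19, adjusted p = 9.5e-05). The groups did not overlap in any comparison. Its day 9 RNA call was lost without day 9 Eif3m siRNA library 2 or 3 or day 9 control siRNA library 1, 2 or 3 (adjusted p = 0.07 to 0.11). Cyp2c54, the neighbour between these genes, was called in 3 comparisons. Its day 9 RNA was 569.9, 392 and 527 CPM in Eif3m siRNA livers, against 673, 721 and 639 CPM in control livers, with an adjusted p of 0.14. Its day 13 RNA was 707 and 509.8 CPM in Eif3m siRNA livers, against 1209 and 1342 CPM in control livers (log2 -1.07, SE 0.21, adjusted p = 0.005). Its footprints were 329.6, 379 and 473 CPM in Eif3m siRNA livers, against 689.5, 552 and 545 CPM in control livers at day 9 (log2 -0.60, SE 0.14, adjusted p = 0.0071). At day 13, Cyp2c54 footprints were 201 and 172 CPM in Eif3m siRNA livers, against 422 and 388 CPM in control livers (log2 -1.13, SE 0.18, adjusted p = 0.00031). The Eif3m siRNA libraries lay below the control libraries in all 4 comparisons, and the day 9 footprint call was lost without day 9 control siRNA library 1 (adjusted p = 0.054). Summed over Cyp2c37, Cyp2c54 and Cyp2c50, the ratio of Eif3m siRNA to control was 0.619 and 0.412 in RNA and 0.6 and 0.415 in footprints at days 9 and 13.

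In the block of Cyp2c67, Cyp2c68, Cyp2c40 and Cyp2c69 the calls were rises, all in day 9 footprints. Cyp2c67 footprints at day 9 were 138, 135 and 144 CPM in Eif3m siRNA livers, against 92.8, 79.7 and 101 CPM in control livers (log2 0.61, SE 0.13, adjusted p = 0.0026). Cyp2c67 RNA at day 9 was 294, 271 and 311 CPM in Eif3m siRNA livers, against 185, 169 and 244 CPM in control livers. Cyp2c67 RNA at day 13 was 1009 and 856 CPM in Eif3m siRNA livers, against 661 and 799.6 CPM in control livers. Both were higher in all Eif3m siRNA livers but did not pass, with adjusted p of 0.062 and 0.23. Cyp2c68 footprints at day 9 were 142, 172 and 172 CPM in Eif3m siRNA livers, against 131, 111 and 115 CPM in control livers (log2 0.45, SE 0.14, adjusted p = 0.036). Cyp2c69 footprints at day 9 were 121, 117 and 144 CPM in Eif3m siRNA livers, against 83.5, 68.7 and 117 CPM in control livers (log2 0.51, SE 0.16, adjusted p = 0.037). In both genes the lowest Eif3m siRNA library was above the highest control library, in Cyp2c69 by a small margin. Cyp2c40, whose enzyme hydroxylates arachidonic acid, did not pass, with a log2 change of 0.36 (SE 0.13, adjusted p = 0.074) in day 9 footprints. The Cyp2c68 call was lost without day 9 Eif3m siRNA library 2 or 3 or day 9 control siRNA library 2 or 3 (adjusted p = 0.09 to 0.15). The Cyp2c69 call was lost without day 9 Eif3m siRNA library 3, day 9 control siRNA library 1 or 2, day 13 Eif3m siRNA library 1 or 2 or day 13 control siRNA library 1 or 2 (adjusted p = 0.05 to 0.21). At day 13 none of the 4 was called in footprints, where their log2 changes ran from -0.04 in Cyp2c69 to 0.36 in Cyp2c68. Summed over the 4 genes, the ratio of Eif3m siRNA to control was 1.39 and 1.25 in RNA and 1.39 and 1.2 in footprints at days 9 and 13.

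**Figure D3:**
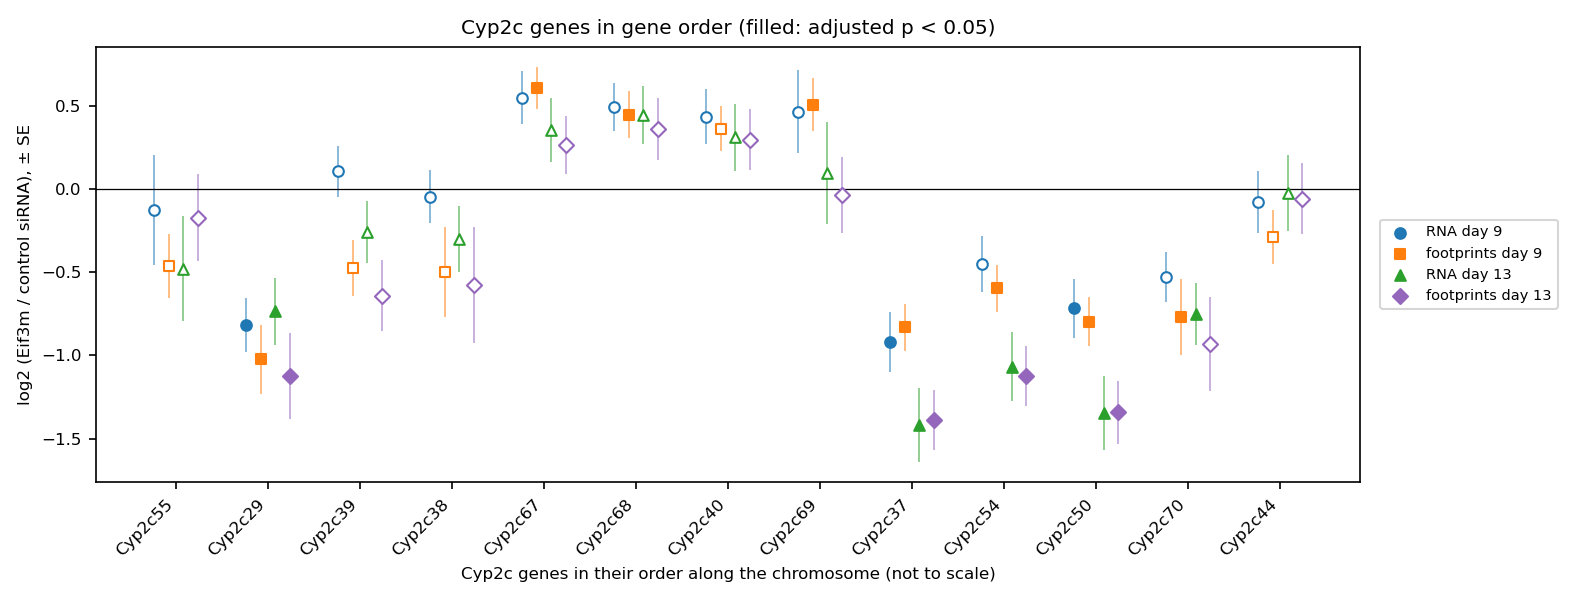
Log2 change, Eif3m siRNA over control siRNA, with SE, of the 13 Cyp2c genes in their order along chromosome 19, in RNA and footprints at days 9 and 13. The 3 neighbours Cyp2c37, Cyp2c54 and Cyp2c50 lie below 0 in all 4 comparisons, and the 4 genes before them lie above 0 in all but day 13 footprints of Cyp2c69 at -0.04.

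Cyp2c29, an arachidonic acid epoxygenase that Nr1i3 activators induce in mouse liver, fell in all 4 comparisons. Its RNA was 759.5, 898 and 1049 CPM in Eif3m siRNA livers, against 1579, 1570 and 1618 CPM in control livers at day 9 (log2 -0.82, SE 0.16, adjusted p = 0.013). At day 13, Cyp2c29 RNA was 2487 and 1718 CPM in Eif3m siRNA livers, against 3377 and 3618 CPM in control livers (log2 -0.73, SE 0.20, adjusted p = 0.026). Its footprints were 263, 450.1 and 499 CPM in Eif3m siRNA livers, against 904, 756 and 806 CPM in control livers at day 9 (log2 -1.02, SE 0.21, adjusted p = 0.0054). At day 13, Cyp2c29 footprints were 393 and 326 CPM in Eif3m siRNA livers, against 913 and 652 CPM in control livers (log2 -1.12, SE 0.26, adjusted p = 0.013). Groups did not overlap. The RNA calls were lost without day 9 Eif3m siRNA library 1 (adjusted p = 0.051) at day 9 and without day 13 Eif3m siRNA library 2 (adjusted p = 0.16) at day 13. The day 13 footprint call of Cyp2c29 was lost without day 13 Eif3m siRNA library 2 or day 13 control siRNA library 1 (adjusted p = 0.1 to 0.15). Its neighbours Cyp2c39 and Cyp2c38 were called in no comparison. Cyp2c39, among the 10 members with most RNA in day 9 control livers, had RNA of 1054, 1191 and 1290 CPM in Eif3m siRNA livers, against 988, 1147 and 1147 CPM in control livers at day 9 (log2 0.11, SE 0.15, adjusted p = 0.76). Its day 9 footprints were 195, 288 and 362 CPM in Eif3m siRNA livers, against 421, 346 and 406 CPM in control livers (log2 -0.47, SE 0.17, adjusted p = 0.067). Its log2 changes at day 13 were -0.26 in RNA and -0.64 in footprints. In Cyp2c38 the log2 changes at days 9 and 13 were -0.04 and -0.30 in RNA, and -0.50 and -0.58 in footprints.

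Cyp2c70, which makes the muricholic bile acids of mice, was called in 2 comparisons. In day 13 RNA it measured 1884 and 1294 CPM in Eif3m siRNA livers, against 2604 and 2739 CPM in control livers (log2 -0.75, SE 0.19, adjusted p = 0.018). In day 9 footprints it measured 352, 719 and 526 CPM in Eif3m siRNA livers, against 1108, 775 and 838 CPM in control livers (log2 -0.77, SE 0.23, adjusted p = 0.044). Cyp2c70 RNA at day 9 was 858, 958 and 813 CPM in Eif3m siRNA livers, against 1307, 1191 and 1294 CPM in control livers. Its day 13 footprints were 523 and 427 CPM in Eif3m siRNA livers, against 931 and 877 CPM in control livers. These groups did not overlap either, but the adjusted p was 0.062 and 0.054. The RNA call was lost without day 13 Eif3m siRNA library 2 (adjusted p = 0.096). The footprint call of Cyp2c70 was lost without day 9 Eif3m siRNA library 3, day 9 control siRNA library 1 or 3, day 13 Eif3m siRNA library 1 or 2 or day 13 control siRNA library 1 or 2 (adjusted p = 0.053 to 0.12). The last 2 members, Cyp2c55 and Cyp2c44, were called in no comparison, with log2 changes between -0.48 and -0.02 over both genes. Of the 13 Cyp2c genes, 3 fell and 0 rose in day 9 RNA, 5 fell and 0 rose in day 13 RNA, 5 fell and 3 rose in day 9 footprints, and 4 fell and 0 rose in day 13 footprints. Their medians were -0.08, -0.30, -0.47 and -0.58, and with library totals the first of these became 0.05.

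Cyp1a2, which oxidizes arylamines and caffeine, fell at day 9 in RNA and footprints. Cyp1a2 RNA at day 9 was 453, 449.8 and 550.0 CPM in Eif3m siRNA livers, against 836, 894 and 845 CPM in control livers (log2 -0.83, SE 0.13, adjusted p = 0.004). Its day 9 footprints were 544, 535 and 684 CPM in Eif3m siRNA livers, against 791, 845 and 899 CPM in control livers (log2 -0.52, SE 0.13, adjusted p = 0.0079). The highest Eif3m siRNA liver stayed below the lowest control liver in both. At day 13 its RNA was 175 and 201 CPM in Eif3m siRNA livers, against 291 and 255 CPM in control livers (log2 -0.54, SE 0.16, adjusted p = 0.041). Its day 13 footprints overlapped, at 824 and 959 CPM in Eif3m siRNA livers, against 982 and 913 CPM in control livers (log2 -0.09, SE 0.16, adjusted p = 0.79). The day 13 RNA call was lost on leaving out 9 of the 10 livers' libraries 1 at a time, all but control library 2 of day 13 (adjusted p = 0.065 to 0.16). Cyp1a1, which oxidizes polycyclic aromatic hydrocarbons, passed in no comparison. Cyp1a1 RNA at day 9 was 36.1, 36.2 and 40.8 CPM in Eif3m siRNA livers, against 61.4, 65.6 and 63.4 CPM in control livers, all lower with Eif3m siRNA (log2 -0.75, SE 0.25, adjusted p = 0.1). Ahr, the receptor behind both genes, was not called in day 9 RNA (log2 0.36, adjusted p = 0.37) and rose in day 13 footprints (log2 0.68, adjusted p = 0.047).

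All 5 Cyp2b genes fell in day 9 footprints, the one case among the subfamilies of several genes in which every member was called. With library totals alone, however, Cyp2b10 was the one gene of the 5 still called. Counts of these relatives contain fractions and may share reads, so the 5 calls may not be separate measurements. Cyp2b10, the phenobarbital-inducible target of Nr1i3, also fell in RNA on both days. Its RNA was 65.2, 67.9 and 79.7 CPM in Eif3m siRNA livers, against 148, 136 and 125 CPM in control livers at day 9 (log2 -0.94, SE 0.16, adjusted p = 0.0064). At day 13, Cyp2b10 RNA was 118 and 80.4 CPM in Eif3m siRNA livers, against 147 and 194 CPM in control livers (log2 -0.78, SE 0.20, adjusted p = 0.02). Its footprints were 44.4, 62.5 and 67.2 CPM in Eif3m siRNA livers, against 93, 103 and 99 CPM in control livers at day 9 (log2 -0.75, SE 0.15, adjusted p = 0.0021). At day 13, Cyp2b10 footprints were 52.1 and 46.2 CPM in Eif3m siRNA livers, against 67.9 and 93.8 CPM in control livers (log2 -0.74, SE 0.21, adjusted p = 0.023). All Eif3m siRNA libraries were below all control libraries each time. Day 13 calls were lost without day 13 Eif3m siRNA library 2 or day 13 control siRNA library 2 (adjusted p = 0.057 to 0.14) in RNA. In footprints the day 13 call was lost without day 13 Eif3m siRNA library 1 or 2 or day 13 control siRNA library 2 (adjusted p = 0.058 to 0.3). The receptor gene Nr1i3 fell in the same livers, as given with the regulators.

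Cyp2b9 and Cyp2b13, steroid-hydroxylating relatives that female mouse liver expresses more, share 99.3% of bases in their promoter windows. Their transcripts were not compared, but their counts contain fractions and may share reads. Cyp2b9 footprints at day 9 were 207, 294 and 324 CPM in Eif3m siRNA livers, against 399.5, 394 and 421 CPM in control livers (log2 -0.56, SE 0.15, adjusted p = 0.015). Cyp2b13 footprints at day 9 were 193, 233 and 246 CPM in Eif3m siRNA livers, against 333, 365 and 315 CPM in control livers (log2 -0.59, SE 0.14, adjusted p = 0.0059). Both sets of libraries were separate. Of the remaining genes, Cyp2b19 and Cyp2b23 averaged 5 and 12.1 CPM in day 9 control RNA but 43.4 and 105 CPM in day 13 control RNA. Their control footprints averaged 19.5 and 28.7 CPM at day 9 and 13.8 and 18.9 CPM at day 13. Cyp2b23 footprints at day 9 were 13.6, 18.9 and 22.2 CPM in Eif3m siRNA livers, against 28, 29.4 and 28.9 CPM in control livers (log2 -0.64, SE 0.16, adjusted p = 0.011). Cyp2b19, best known from skin keratinocytes, measured 8.95, 13.9 and 15.1 CPM in Eif3m siRNA livers, against 19.1, 19.4 and 19.9 CPM in control livers in day 9 footprints (log2 -0.60, SE 0.18, adjusted p = 0.03). At day 13, Cyp2b19 footprints were 8.02 and 6.15 CPM in Eif3m siRNA livers, against 12.8 and 14.9 CPM in control livers (log2 -1.05, SE 0.32, adjusted p = 0.033). In all these footprint comparisons the control livers were higher without overlap. Calls were lost without day 9 control siRNA library 3 (adjusted p = 0.053) for Cyp2b9. For Cyp2b19 they were lost without day 9 Eif3m siRNA library 1 or day 9 control siRNA library 1, 2 or 3 (adjusted p = 0.064 to 0.08) at day 9. The Cyp2b19 call at day 13 was lost without day 13 Eif3m siRNA library 2 or day 13 control siRNA library 1 or 2 (adjusted p = 0.093 to 0.4). The median log2 change of the 5 genes was -0.71 and -0.63 in RNA and -0.60 and -0.73 in footprints at days 9 and 13.

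Cyp2a5, the coumarin hydroxylase of mouse liver, and Cyp2a4, a steroid hydroxylase with 97.7% identity to it in the promoter window, fell at day 13. Cyp2a5 RNA was 739 and 641 CPM in Eif3m siRNA livers, against 1261 and 1975 CPM in control livers at day 13 (log2 -1.23, SE 0.23, adjusted p = 0.004). At day 9, Cyp2a5 RNA was 681, 718 and 969 CPM in Eif3m siRNA livers, against 1040, 1088 and 1152 CPM in control livers (log2 -0.47, SE 0.18, adjusted p = 0.16). Its day 13 footprints were 449.6 and 537 CPM in Eif3m siRNA livers, against 716 and 1008 CPM in control livers (log2 -0.80, SE 0.18, adjusted p = 0.0047). Cyp2a4 RNA at day 13 was 689.7 and 596 CPM in Eif3m siRNA livers, against 1158 and 1813 CPM in control livers (log2 -1.21, SE 0.23, adjusted p = 0.0047). Its day 13 footprints were 462 and 546 CPM in Eif3m siRNA livers, against 721 and 1016 CPM in control livers (log2 -0.78, SE 0.18, adjusted p = 0.0057). In these day 13 values the groups were separate, and the control livers differed among themselves, control library 2 being the higher. The footprint calls were lost without day 13 Eif3m siRNA library 1 or day 13 control siRNA library 2 (adjusted p = 0.083 to 0.16) for Cyp2a4. For Cyp2a5 the call was lost without day 13 Eif3m siRNA library 1 or day 13 control siRNA library 2 (adjusted p = 0.076 to 0.14). At day 9 Cyp2a4 RNA was 727, 781 and 1049 CPM in Eif3m siRNA livers, against 1004, 1042 and 1157 CPM in control livers, and the groups overlapped (log2 -0.32, SE 0.18, adjusted p = 0.36). The difference between the days did not pass for either gene, with log2 values of -0.88 (SE 0.29, adjusted p = 0.15) for Cyp2a4 and -0.76 (SE 0.29, adjusted p = 0.2) for Cyp2a5. Cyp2a12 and Cyp2a22 were called in no comparison, and their log2 changes ran from -0.35 to -0.07.

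Cyp2e1, the ethanol and acetaminophen oxidizing enzyme, had the most RNA of the members in day 9 control livers, uncorrected for length, and it fell in footprints on both days. Day 9 footprints were 4518, 3475 and 4988 CPM in Eif3m siRNA livers, against 6294, 6767 and 5443 CPM in control livers (log2 -0.51, SE 0.14, adjusted p = 0.017). Day 13 footprints were 3182 and 2666 CPM in Eif3m siRNA livers, against 5332 and 4794 CPM in control livers (log2 -0.79, SE 0.17, adjusted p = 0.0041). Cyp2e1 RNA at day 9 was 8290, 5927 and 8421 CPM in Eif3m siRNA livers, against 9914, 11350 and 8578 CPM in control livers (log2 -0.40, SE 0.19, adjusted p = 0.25). Cyp2e1 RNA at day 13 was 8682 and 5925 CPM in Eif3m siRNA livers, against 12330 and 11310 CPM in control livers (log2 -0.69, SE 0.23, adjusted p = 0.058). Both were lower in all Eif3m siRNA livers but did not pass the threshold. RNA and footprints were not shown to differ: the change in footprints per RNA was -0.12 (SE 0.23, adjusted p = 1) at day 9 and -0.18 (SE 0.28, adjusted p = 0.91) at day 13. Footprint calls were lost without day 9 Eif3m siRNA library 2 or day 9 control siRNA library 1 or 2 (adjusted p = 0.057 to 0.094) at day 9. At day 13 the Cyp2e1 footprint call was lost without day 13 Eif3m siRNA library 2 or day 13 control siRNA library 1 (adjusted p = 0.058 to 0.12).

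Cyp2f2, the naphthalene epoxidase that marks periportal hepatocytes, fell in 3 comparisons. Day 9 footprints were 961, 672 and 740.5 CPM in Eif3m siRNA livers, against 1339, 1192 and 1162 CPM in control livers (log2 -0.64, SE 0.15, adjusted p = 0.0081). Day 13 footprints were 748 and 575 CPM in Eif3m siRNA livers, against 1213 and 878 CPM in control livers (log2 -0.66, SE 0.19, adjusted p = 0.027). Its RNA was 154 and 105 CPM in Eif3m siRNA livers, against 344 and 185 CPM in control livers at day 13 (log2 -1.02, SE 0.26, adjusted p = 0.02). At day 9, Cyp2f2 RNA was 1060, 831 and 894 CPM in Eif3m siRNA livers, against 1409, 1292 and 1248 CPM in control livers (log2 -0.50, SE 0.21, adjusted p = 0.2). The Eif3m siRNA libraries were lower in all 4 comparisons. The day 13 calls were lost without day 13 Eif3m siRNA library 2 or day 13 control siRNA library 1 (adjusted p = 0.14 to 0.15) in RNA. The Cyp2f2 footprint call at day 13 was lost without day 13 Eif3m siRNA library 2 or day 13 control siRNA library 1 (adjusted p = 0.33 to 0.35).

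Cyp2g1, a steroid-metabolizing enzyme known from the olfactory mucosa, had low levels in liver and large relative changes. Its RNA was 7.81, 5.73 and 8.75 CPM in Eif3m siRNA livers, against 15.2, 15.8 and 18.5 CPM in control livers at day 9 (log2 -1.15, SE 0.21, adjusted p = 0.0081). At day 13, Cyp2g1 RNA was 0.941 and 0.188 CPM in Eif3m siRNA livers, against 4.95 and 5.71 CPM in control livers (log2 -2.85, SE 0.40, adjusted p = 0.0007). Day 9 footprints were 4.07, 3.63 and 2.46 CPM in Eif3m siRNA livers, against 6.77, 6.89 and 6.73 CPM in control livers (log2 -1.02, SE 0.28, adjusted p = 0.017). All control libraries were higher. In day 13 footprints it had 0 and 2 counts in the Eif3m siRNA livers, against 3 and 10 in the control livers. The ratio of the group sums after scaling was 0.0611, with an exact 95% interval of 0.00669 to 0.27 that covers counting error only, and the adjusted p was 0.0034. That call was lost without day 13 Eif3m siRNA library 2 or day 13 control siRNA library 2 (adjusted p = 0.08 to 0.19). The day 9 footprint call of Cyp2g1 was lost without day 9 Eif3m siRNA library 3 or day 9 control siRNA library 2 (adjusted p = 0.057 to 0.092). The RNA change at day 13 minus that at day 9 was -1.70 (SE 0.47, adjusted p = 0.09).

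Cyp2u1, a hydroxylase of long-chain fatty acids, was the one member that rose in all 4 comparisons. Its RNA was 18.6, 18.7 and 15.9 CPM in Eif3m siRNA livers, against 11.2, 8.88 and 7.52 CPM in control livers at day 9 (log2 0.95, SE 0.19, adjusted p = 0.013). At day 13, Cyp2u1 RNA was 9.88 and 7.89 CPM in Eif3m siRNA livers, against 2.71 and 4.16 CPM in control livers (log2 1.40, SE 0.27, adjusted p = 0.005). Its footprints were 33, 29.2 and 24.8 CPM in Eif3m siRNA livers, against 16.4, 14.6 and 11.7 CPM in control livers at day 9 (log2 1.02, SE 0.17, adjusted p = 0.00042). At day 13, Cyp2u1 footprints were 22.3 and 29.4 CPM in Eif3m siRNA livers, against 4.06 and 5.86 CPM in control livers (log2 2.42, SE 0.32, adjusted p = 5.5e-05). The lowest Eif3m siRNA library was above the highest control library every time. The RNA calls were lost without day 9 Eif3m siRNA library 1 or 2 or day 9 control siRNA library 2 or 3 (adjusted p = 0.05 to 0.07) at day 9 and without day 13 Eif3m siRNA library 1 (adjusted p = 0.065) at day 13. The footprint change at day 13 minus that at day 9 was 1.40 (SE 0.38, adjusted p = 0.1), and the day 13 change in footprints per RNA was 0.95 (SE 0.46, adjusted p = 0.5). Neither passed the threshold.

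**Figure D4:**
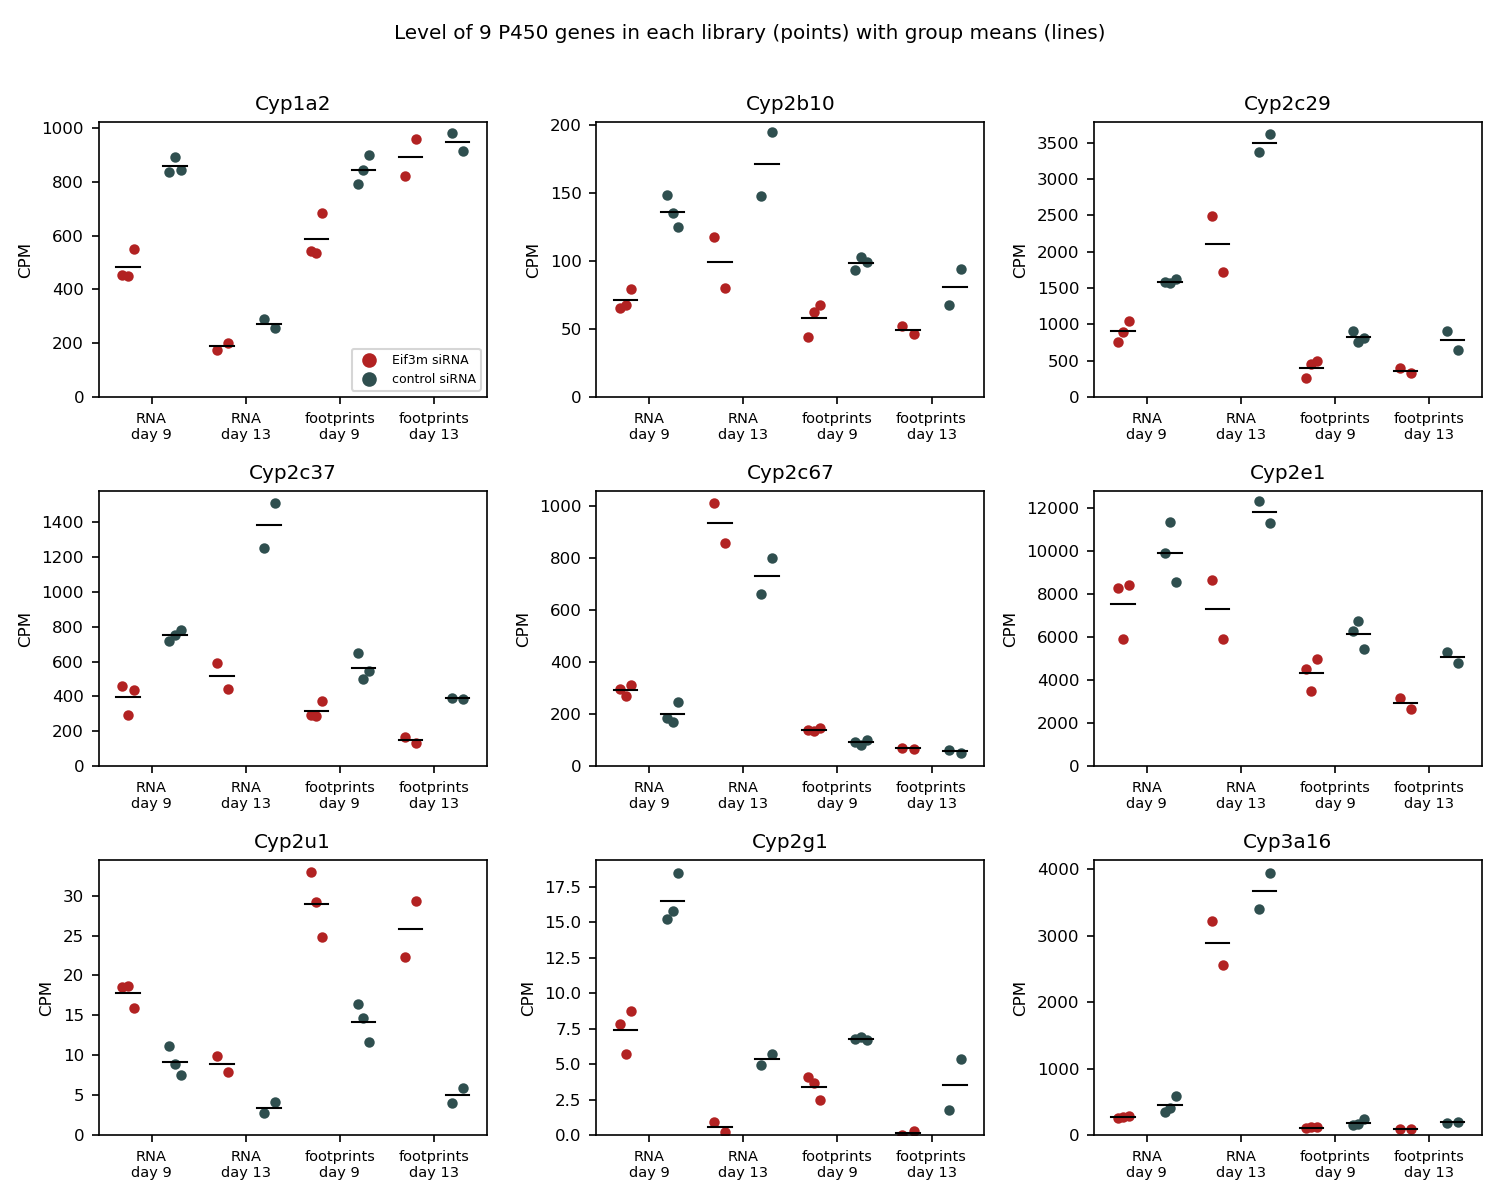
Level in each library, in CPM on a linear axis, of 9 P450 genes in RNA and footprints at days 9 and 13, Eif3m siRNA left of control siRNA. Each point is 1 liver and lines are group means. The Eif3m siRNA points of Cyp2c37 and Cyp2c29 lie below the control points in all 4 comparisons, and those of Cyp2u1 above them.

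Among the 3 Cyp2j genes the calls were falls at day 9. Cyp2j5 footprints were 339, 394 and 405 CPM in Eif3m siRNA livers, against 625, 577 and 576 CPM in control livers at day 9 (log2 -0.64, SE 0.12, adjusted p = 0.00088). Cyp2j5 RNA at day 9 was 666, 619 and 710.0 CPM in Eif3m siRNA livers, against 841, 859 and 928 CPM in control livers (log2 -0.40, SE 0.14, adjusted p = 0.11). Cyp2j6 footprints at day 9 were 33.8, 32.8 and 35.4 CPM in Eif3m siRNA livers, against 46.6, 45.8 and 49.6 CPM in control livers (log2 -0.48, SE 0.14, adjusted p = 0.027). Both genes were lower in all Eif3m siRNA livers at day 9. Cyp2j9 was called in day 9 RNA alone, at 2.61, 3.5 and 2.98 CPM in Eif3m siRNA livers, against 9.92, 5.36 and 4.35 CPM in control livers (log2 -1.10, SE 0.27, adjusted p = 0.033). Its control livers spread widely, and the call was lost without day 9 Eif3m siRNA library 1, 2 or 3, day 9 control siRNA library 1 or day 13 Eif3m siRNA library 1 or 2 (adjusted p = 0.054 to 0.13). The Cyp2j6 call was lost without day 9 Eif3m siRNA library 2 or 3 or day 9 control siRNA library 1, 2 or 3 (adjusted p = 0.06 to 0.098). At day 13 no Cyp2j gene was called, and log2 changes ran from -0.39 in Cyp2j5 footprints to 0.26 in Cyp2j6 RNA. Cyp2r1, a vitamin D hydroxylase, was called in no comparison, with log2 changes of -0.48 and -0.58 in RNA and -0.56 and 0.03 in footprints at days 9 and 13.

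The Cyp3a genes did not move together. Cyp3a11, the main drug-oxidizing Cyp3a of mouse liver and target of Nr1i2, was called in no comparison. Cyp3a11 RNA at day 9 was 2914, 3066 and 3346 CPM in Eif3m siRNA livers, against 2941, 3579 and 3084 CPM in control livers (log2 -0.04, SE 0.15, adjusted p = 0.92). Its day 9 footprints were 798, 1344 and 1371 CPM in Eif3m siRNA livers, against 1301, 1437 and 1275 CPM in control livers (log2 -0.19, SE 0.24, adjusted p = 0.66). At day 13 its log2 changes were -0.18 (SE 0.18, adjusted p = 0.54) in RNA and -0.08 (SE 0.30, adjusted p = 0.92) in footprints. Both groups overlapped in all 4 comparisons. Cyp3a16, known as a fetal and neonatal form, fell in 3 comparisons. Cyp3a16 RNA at day 9 was 252, 265 and 280.5 CPM in Eif3m siRNA livers, against 343, 400.5 and 594 CPM in control livers (log2 -0.75, SE 0.19, adjusted p = 0.038). Its footprints were 99.9, 115 and 114 CPM in Eif3m siRNA livers, against 146, 162 and 236 CPM in control livers at day 9 (log2 -0.73, SE 0.15, adjusted p = 0.0026). At day 13, Cyp3a16 footprints were 96.2 and 89.9 CPM in Eif3m siRNA livers, against 177 and 201 CPM in control livers (log2 -1.03, SE 0.20, adjusted p = 0.0016). The groups were separate each time, although control library 3 at day 9 stood above the other control livers. The RNA call of Cyp3a16 was lost without day 9 Eif3m siRNA library 1, 2 or 3 or day 9 control siRNA library 2 or 3 (adjusted p = 0.061 to 0.16). Its day 13 RNA change was -0.35 (SE 0.23, adjusted p = 0.33). Cyp3a44, whose promoter window shares 93.3% of bases with that of Cyp3a16, was called in no comparison, with log2 changes from -0.13 to 0.03.

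Cyp3a25, Cyp3a57 and Cyp3a59 rose in day 13 RNA. Cyp3a25 measured 1770 and 1815 CPM in Eif3m siRNA livers, against 1040 and 1190 CPM in control livers (log2 0.68, SE 0.16, adjusted p = 0.012). Cyp3a59 measured 1566 and 1618 CPM in Eif3m siRNA livers, against 913 and 1049 CPM in control livers (log2 0.70, SE 0.16, adjusted p = 0.011). Cyp3a57 measured 1389 and 1409 CPM in Eif3m siRNA livers, against 835 and 959 CPM in control livers (log2 0.64, SE 0.16, adjusted p = 0.016). The promoter windows of the 3 genes share 89.7% to 95.7% of bases, but most of each window lies before the start, and transcripts were not compared. Counts of the 3 genes contain fractions and may share reads, so they may not be 3 separate measurements. The Cyp3a57 call was lost without day 13 Eif3m siRNA library 2 (adjusted p = 0.054). With day 13 fitted alone Cyp3a25 (adjusted p = 0.053) and Cyp3a57 (adjusted p = 0.068) were not called. In day 13 footprints their log2 changes were 0.04 (SE 0.23, adjusted p = 0.95), 0.14 (SE 0.27, adjusted p = 0.81) and 0.20 (SE 0.32, adjusted p = 0.76) in the same order. Their day 9 RNA changes were 0.04, 0.00 and 0.02. The difference of the RNA changes between the days did not pass, with 0.64 (SE 0.20, adjusted p = 0.12) for Cyp3a25 and 0.69 (SE 0.20, adjusted p = 0.1) for Cyp3a59. Cyp3a13, an intestinal and hepatic form, was called in day 9 footprints at 20.1, 20.9 and 26 CPM in Eif3m siRNA livers, against 29.6, 27.3 and 36.6 CPM in control livers (log2 -0.48, SE 0.16, adjusted p = 0.047). The Cyp3a13 call was lost without day 9 Eif3m siRNA library 1 or 2, day 9 control siRNA library 1, 2 or 3, day 13 Eif3m siRNA library 1 or 2 or day 13 control siRNA library 1 or 2 (adjusted p = 0.05 to 0.21).

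None of the 9 Cyp2d genes, the mouse relatives of the human CYP2D enzymes, was called in any of the 4 comparisons. Cyp2d26, the one with most RNA, measured 931, 849 and 944 CPM in Eif3m siRNA livers, against 1095, 1158 and 1045 CPM in control livers in day 9 RNA (log2 -0.28, SE 0.13, adjusted p = 0.26). Its day 9 footprints were 549, 536 and 569 CPM in Eif3m siRNA livers, against 574, 625 and 572 CPM in control livers (log2 -0.10, SE 0.12, adjusted p = 0.62). Its levels were separate between the groups in day 9 RNA, yet the change was small. The medians of the 9 genes were -0.11 and -0.03 in RNA and -0.09 and -0.20 in footprints at days 9 and 13, and turned positive in all 4 with library totals and in day 13 RNA with DESeq2's size factors. Their extremes were -0.64 (SE 0.22, adjusted p = 0.059) in Cyp2d40 RNA and 0.42 (SE 0.21, adjusted p = 0.23) in Cyp2d34 footprints, both at day 13. RefSeq lists Cyp2d13 as a transcribed pseudogene. Its day 9 log2 changes were -0.10 in RNA and -0.28 in footprints.

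Footprints per RNA, the translational efficiency, were tested in 1 model over both assays, and no member was called at day 9 or at day 13. Libraries were scaled within each assay, so efficiency is relative to other genes. A change in translation shared by all genes would not show. At day 9 this was 0% of 14236 genes tested, and at day 13 0.0211% of them (3 genes). At an unadjusted p below 0.05, 1 member passed at day 9 and 2 at day 13. The members' changes ran from -0.59 (SE 0.24, adjusted p = 0.99) in Cyp2c39 to 0.66 (SE 0.40, adjusted p = 1) in Cyp2j9 at day 9. The SE of a single gene was 0.17 to 0.40 with a median of 0.24. Even the change of -0.59 in Cyp2c39 was not called, so changes of that size in single genes could be missed. At day 13 they ran from -1.20 in Cyp2g1, which rests on a few counts, to 0.95 in Cyp2u1, with a median SE of 0.31. The members' medians were -0.05 at day 9 and -0.17 at day 13, against 0.03 and 0.13 for all genes. The smallest day 13 p values belonged to Cyp3a25 at -0.73 (SE 0.30, adjusted p = 0.4) and Cyp3a16 at -0.76 (SE 0.31, adjusted p = 0.4).

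**Figure D5:**
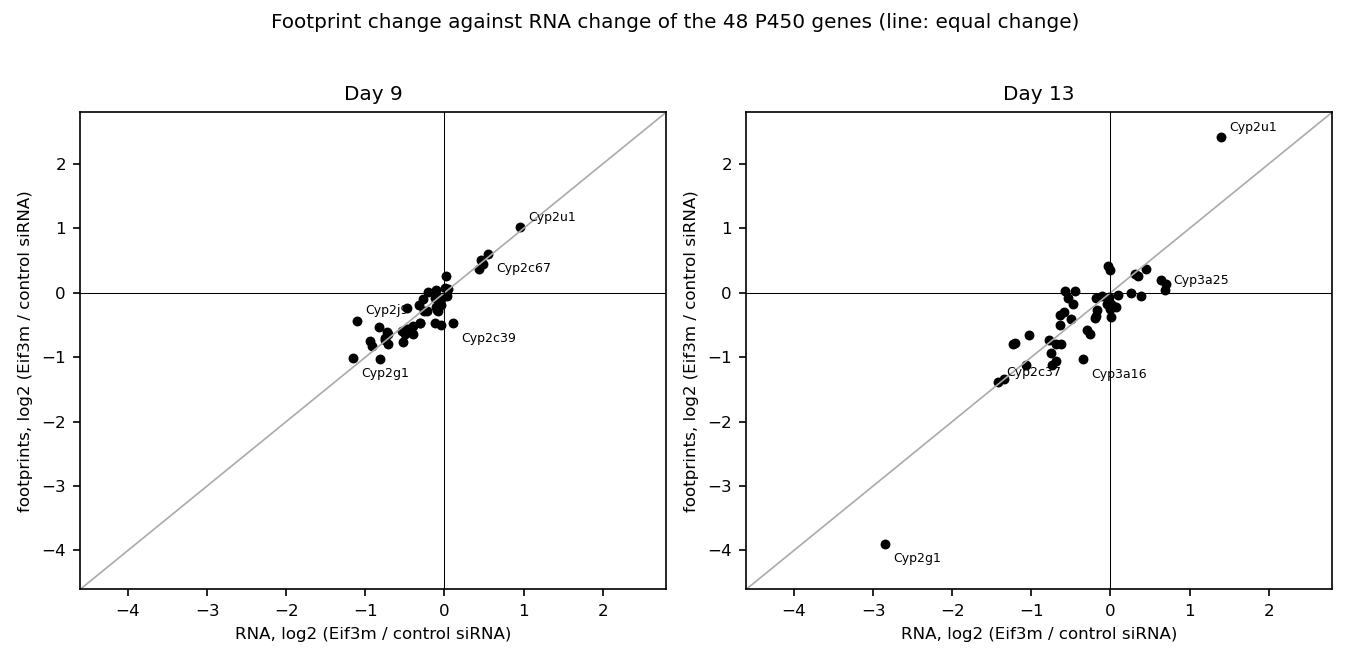
Log2 change in footprints (vertical) against log2 change in RNA (horizontal), Eif3m siRNA over control siRNA, for the 48 P450 genes at day 9 and day 13; the diagonal marks equal change. Cyp2u1 lies in the upper right and Cyp2g1 in the lower left on both days, and no member passed the test of the distance from the diagonal.

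The changes at days 9 and 13 were also set against each other, and 0 members passed in RNA (1.23% of all genes did) or in footprints (0.819%). At an unadjusted p below 0.05, 10 members passed in RNA and 8 in footprints. DESeq2 called 4 in RNA, and edgeR called 7 in RNA without day 13 control library 2, 2 without day 13 control library 1 and 1 without day 13 Eif3m siRNA library 1, and 1 in footprints without day 9 Eif3m siRNA library 1. The baseline itself differed far more between the days in RNA than in footprints. Cyp3a11 RNA averaged 16800 CPM in day 13 control livers and 3200 CPM in day 9 control livers, while its footprints averaged 1840 CPM at day 13 and 1340 CPM at day 9. Cyp2f2 RNA averaged 265 CPM in day 13 control livers and 1320 CPM in day 9 control livers, with footprints at 1050 CPM at day 13 and 1230 CPM at day 9. Cyp1a1 RNA averaged 4.38 CPM in day 13 control livers and 63.5 CPM in day 9 control livers, with footprints at 149 CPM at day 13 and 103 CPM at day 9. The RNA kit changed with the day and the footprint kit did not, and the part of the kit cannot be told apart from that of the day. RNA comparisons within a day share a kit.

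Among 25 genes of other P450 families, which make bile acids and steroids or oxidize fatty acids, the calls were falls with 1 exception. In RNA 0 rose and 7 fell at day 9 and 1 rose and 6 fell at day 13, and in footprints, with 24 tested, 0 rose and 9 fell at day 9 and 0 rose and 3 fell at day 13. The shares called were 28% in RNA on both days, where 5.67% and 16% of all genes were called at days 9 and 13, and 37.5% in day 9 footprints, against 14.7%. In day 13 footprints the share was 12.5%, against 12.4% of all genes, so that count is no result about these genes. Cyp27a1, which hydroxylates the sterol side chain in bile acid synthesis, fell in all 4 comparisons. Its day 9 RNA averaged 274 ± 38.8 CPM in Eif3m siRNA livers and 499 ± 59.6 CPM in control livers (SD, n = 3 each), a log2 change of -0.86 (adjusted p = 0.021). Cyp4v3, a fatty acid hydroxylase, also fell in all 4, with log2 changes from -0.76 to -0.59. Cyp39a1, an oxysterol hydroxylase, fell in footprints by log2 changes of -1.02 at day 9 and -1.33 at day 13. Cyp17a1, a steroid hydroxylase and lyase, averaged 7.39 ± 4.21 CPM in Eif3m siRNA livers and 167 ± 88.5 CPM in control livers in day 9 RNA (log2 -4.49, adjusted p = 0.0096), its control livers differing widely. Cyp4a10, a fatty acid omega-hydroxylase and Ppara target, fell at day 9 with log2 changes of -0.62 in RNA and -0.74 in footprints. Cyp46a1, a cholesterol hydroxylase, had 0 counts in day 13 Eif3m siRNA RNA, against 27 in control RNA. With a floor of 3 counts over the group, or 0.134 CPM, it was at least 4.82-fold lower.

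Of 17 genes for electron transfer and heme, 1 rose and 2 fell in day 9 RNA, 0 rose and 5 fell in day 13 RNA, 1 rose and 6 fell in day 9 footprints, and 0 rose and 3 fell in day 13 footprints. In the same order 17.6%, 29.4%, 41.2% and 17.6% were called, against 5.67%, 16%, 14.7% and 12.4% of all genes. Hmox1, the heme oxygenase that breaks heme down, was the one that rose, at day 9. Its day 9 footprints averaged 107 ± 15.2 CPM in Eif3m siRNA livers and 52.3 ± 4.54 CPM in control livers (SD, n = 3 each), a log2 change of 1.03 (adjusted p = 5.7e-05). The Hmox1 RNA change was 0.78 (adjusted p = 0.014). The enzymes of heme synthesis Ppox, Alad and Fech fell in day 13 RNA with log2 changes of -1.30, -1.38 and -0.98. Cyb5r3, the cytochrome b5 reductase, fell in footprints by log2 changes of -0.58 at day 9 and -0.67 at day 13. Pgrmc1, a heme-binding partner of P450 enzymes, fell in day 9 footprints with a log2 change of -0.70 (adjusted p = 0.001). Por passed in no comparison, with log2 changes of -0.48 and -0.75 in RNA and -0.53 and -0.72 in footprints.

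Of 31 tested regulators of P450 genes, 0 rose and 2 fell in day 9 RNA, 0 rose and 6 fell in day 13 RNA, 1 rose and 5 fell in day 9 footprints, and 1 rose and 4 fell in day 13 footprints. These shares, 6.45%, 19.4%, 19.4% and 16.1%, were near those of all genes, 5.67%, 16%, 14.7% and 12.4%, and show nothing particular to regulators. The Cyp2b10 regulator Nr1i3 averaged 70.7 ± 12.3 CPM in Eif3m siRNA livers and 127 ± 33.6 CPM in control livers in day 9 RNA (SD, n = 3 each; log2 -0.85, adjusted p = 0.024). At day 13 it fell in RNA (log2 -1.12, adjusted p = 0.0098) and in footprints (log2 -1.36, adjusted p = 0.034), and in day 9 footprints it did not pass (log2 -0.72, adjusted p = 0.099). Its partner Rxra fell in day 9 footprints (log2 -0.48) and at day 13 in RNA and footprints (log2 -1.02 and -0.60). In day 13 RNA, Rxra was 5.41 and 10.15 CPM in Eif3m siRNA livers and 18.6 and 10.74 CPM in control livers. Library 2 of each group was thus nearly equal. The day 9 control RNA of Rxra was far higher, at 135.2, 146.4 and 147.5 CPM, and the RNA kit differed between the days. Nr0b2, a repressor induced by bile acid signalling, fell at day 9 with log2 changes of -1.12 in RNA and -1.07 in footprints. Onecut1 fell at day 13, with log2 changes of -1.64 in RNA and -1.36 in footprints. The coactivator Ppargc1a fell in day 9 footprints (log2 -1.06), and Ctnnb1, which encodes the Wnt effector beta-catenin that sets pericentral expression, fell in day 13 RNA (log2 -0.58). Nr1i2 and Hnf4a passed in no comparison, with day 9 RNA changes of 0.20 and 0.25.

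Markers of other cells and zones were counted in the same way. Of all genes, 5.67% and 16% were called in RNA and 14.7% and 12.4% in footprints at days 9 and 13. Of 14 pericentral markers other than P450 genes, 1 rose and 4 fell in day 9 RNA, and 0 rose and 7 fell in day 13 RNA. In footprints 1 rose and 3 fell at day 9, and 1 rose and 6 fell at day 13. In the same order 35.7%, 50%, 28.6% and 50% of the pericentral markers were called. Their sum was 2396 to 3050 CPM in Eif3m siRNA livers and 3599 to 3955 CPM in control livers in day 9 RNA, and 4123 to 4150 CPM in Eif3m siRNA livers and 5996 to 6015 CPM in control livers in day 13 footprints. Of 14 periportal markers 1 rose and 1 fell in RNA on each day. In footprints 1 rose and 2 fell at day 9, and 0 rose and 1 fell at day 13. The shares called were 14.3% in RNA on both days, and 21.4% and 7.14% in footprints at days 9 and 13. Those of day 13 were below the shares of all genes, so these counts are no result about periportal markers. Their day 9 RNA sums were 14660 to 17530 CPM in Eif3m siRNA livers and 13270 to 15670 CPM in control livers. The summed pericentral markers were separate between the groups. In day 9 RNA, Rgn and Oat differed most in CPM. Rgn measured 898, 800 and 1038 CPM in Eif3m siRNA livers and 1340, 1434 and 1502 CPM in control livers. Glul overlapped and Cldn2 was higher in Eif3m siRNA livers, while 11 of the 14 had negative changes (median log2 -0.38). The periportal sums overlapped in day 9 RNA but were higher in both Eif3m siRNA livers in day 13 RNA. Cps1, a urea cycle enzyme, carried that day 13 sum, at 17090 and 16510 CPM in Eif3m siRNA livers and 10650 and 11900 CPM in control livers, while 10 of the 14 markers had negative changes (median log2 -0.27). The 9 hepatocyte markers summed to 162800 to 177500 CPM in Eif3m siRNA livers and 190800 to 199200 CPM in control livers in day 9 RNA. Alb, which encodes albumin, carried that difference, at 93630, 85390 and 96430 CPM in Eif3m siRNA livers and 123900, 119300 and 127500 CPM in control livers. Of the 9, 1 rose and 1 fell in day 9 RNA, and 6 had positive changes (median log2 0.13). In day 13 RNA 1 rose and 3 fell, in day 9 footprints 2 rose and 2 fell, and in day 13 footprints 1 rose and 3 fell. The shares of hepatocyte markers called were 22.2% in day 9 RNA and 44.4% in each other comparison. Of 8 Kupffer cell markers 0 rose and 3 fell in day 9 RNA and 0 rose and 7 fell in day 13 RNA. In footprints 1 rose and 2 fell at day 9, with a median log2 change of -0.03, and 0 rose and 4 fell at day 13. Of the 8 Kupffer cell markers, 37.5% and 87.5% were called in RNA and 37.5% and 50% in footprints at days 9 and 13. Their day 9 RNA sums were 180.1 to 224 CPM in Eif3m siRNA livers and 296.5 to 357.7 CPM in control livers. Of 7 endothelial markers 1 rose in RNA and footprints at day 9 (14.3% in each), and 5 fell in day 13 RNA (71.4%). Of 7 stellate cell markers 2 rose in day 9 footprints (28.6%), 2 fell in day 13 RNA (28.6%) and 1 fell in day 13 footprints (14.3%). The endothelial share in day 9 footprints and the stellate share in day 13 footprints were near those of all genes. Lists of endothelial, stellate, bile duct and blood cell markers each summed to at most 694.6 CPM in any library. Markers of these lists at 0 in some library included Des, Krt19, Krt7, Sox9, Cd3e, Cd79a, Nkg7, Ms4a1, S100a8 and S100a9, while no marker of hepatocytes, either zone, Kupffer or endothelial cells was at 0 in any library. Of 16 acute phase genes tested, 0 rose and 1 fell in day 9 RNA (6.25%, near the share of all genes), and 0 rose and 5 fell in day 9 footprints (31.2%). At day 13, 0 rose and 12 fell in RNA (75%), and 0 rose and 9 fell in footprints (56.2%). The day 13 control livers differed: Saa1 footprints were 45.3 CPM in library 1 and 573 CPM in library 2, and Fga footprints 8505 and 6716 CPM. Eif3m siRNA livers had 13.7 and 16.7 CPM of Saa1, and 4112 and 3504 CPM of Fga. The part of these cells and zones in the P450 changes was not tested.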

How the data were processed

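The deposited table gives expected counts per gene symbol, with a column for each of the 20 libraries. Per the submitters' processing notes, the authors used cutadapt, Bowtie and Bowtie2. The sources used here do not state what each tool did, its version, the build or how reads were counted. Of nonzero deposited expected counts, 44.3% were not whole, and 100% lay within 0.01 of a multiple of 1 over 6. PCR duplicates cannot be recognised in these counts.

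Counts were rounded and grouped by siRNA, day and assay from the labels. RNA and footprints each had a model of their own (R 4.3.3, edgeR 4.0.16, filterByExpr, TMM, robust quasi-likelihood F test, two-sided) over the 4 groups of the assay, which share 1 estimate of spread. Efficiency was the interaction of siRNA and assay in 1 model of 20 libraries. Adjusted p values are Benjamini-Hochberg over all genes tested, called below 0.05, in 8 comparisons. The SE is the size of the log2 change over the square root of F. RNA and footprints of a liver carry the same animal ID and deviated together (r from 0.112 to 0.439). The p values rest on a spread estimated over the livers of both days together, with 2 or 3 livers per group. The main efficiency model had no animal term and treated the 20 libraries as independent.

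The members and gene lists were chosen with earlier results of these data known. Named with values were the 28 members called in at least 1 comparison, the 10 with most RNA in day 9 control livers, and up to 6 called genes of each of 3 pathway lists by smallest p. Por, Nr1i2, Hnf4a and Ahr and single values of other members were added after their values were seen. Levels are not compared between genes, since lengths were not used. 1 item is not reported here. All 48 members were found in the RefSeq gene table and 40 in its promoter table. Alternatives were other scalings, filters, DESeq2 1.42.0, days fitted alone, a replicate or animal block, and leaving out each library. The fits were tested on simulated data.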

Additional observations from a re-analysis of the deposited data

How the results depend on the processing

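Each result was recomputed under other processing choices. The 9 members called in day 9 RNA became 18 without the expression filter, 16 with DESeq2 and 26 with day 9 fitted alone, and 5 to 18 on leaving out 1 library. The 15 of day 13 RNA became 9 with day 13 fitted alone, and 9 to 18 on leaving out 1 library. The 22 of day 9 footprints became 11 with library totals alone, and 15 to 24 on leaving out 1 library. The 13 of day 13 footprints became 7 to 19. For the difference between days, 0 calls in RNA became 4 without a filter, 4 with DESeq2 and 0 to 7 on leaving out 1 library, and 0 in footprints became 1 without a filter and 0 to 1 on leaving out 1 library. With library totals alone the members' median was -0.13 in day 9 RNA and -0.13 in day 9 footprints, and that of day 13 footprints turned to 0.06, where the all-gene median also moved to 0.34. That scaling kept 8 of 9, 14 of 15, 10 of 22 and 8 of 13 calls in day 9 RNA, day 13 RNA, day 9 footprints and day 13 footprints. No efficiency call was made under any setting, the animal block included. Replicate numbers are shared between siRNA groups, and same-numbered livers deviated together in some cases and not in others (r from -0.141 to 0.237). The main model did not pair them. With the replicate block 6, 14, 22 and 12 members were called in the same order. Of the calls made, 4 of 9, 8 of 15, 12 of 22 and 5 of 13 were kept whichever library was left out. Where that leaves 1 liver in a group, it is assumed to vary like the others. The causes of these changes were not tested. The day 13 footprint libraries, of 1.64 to 2.12 M counts in 3 and 6.52 M in Eif3m siRNA library 2, limit what low genes such as Cyp2g1 can show.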

Other observations

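Some of the genes below the RNA threshold of the group had footprint counts assigned to them at day 9. Cyp2c65 had footprints of 6.1, 8.57 and 8.62 CPM in Eif3m siRNA livers and 17.4, 11.9 and 11.7 CPM in control livers at day 9, while its RNA was at 0.0725, 0.151 and 0.183 CPM in Eif3m siRNA livers and 0.035, 0.154 and 0.0308 CPM in control livers. Cyp2c66 had day 9 footprints of 5.49, 6.25 and 4.62 CPM in Eif3m siRNA livers and 9.33, 6.07 and 5.38 CPM in control livers. Cyp2j13 had day 9 footprints of 6.71, 6.68 and 7.23 CPM in Eif3m siRNA livers and 12.2, 9.65 and 7.77 CPM in control livers. Its RNA at day 13 was 26.6 and 19.9 CPM in Eif3m siRNA livers and 22.4 and 23.8 CPM in control livers, against a mean of 0.631 CPM in day 9 control livers. Cyp2c65, Cyp2c66 and Cyp2j13 had non-whole counts in 80%, 75% and 80% of libraries. Their footprints may therefore include reads shared with more abundant relatives, which was not tested. These genes were chosen after their values were seen, and no test was run on them.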
